A study of Mus musculus with 14 samples.

Results

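The serum amyloid A genes Saa1, Saa2, Saa3 and Saa4 were followed in bulk RNA-seq of intestinal tissue from WT and MiR-29ab1-/- mice, with and without dextran sulfate sodium (DSS), a polymer given in drinking water that injures the colon lining. The 4 members were taken by gene name from 55889 features in the table without DSS and 54721 in the table after DSS, and all 4 were present in both. They were selected on read counts after DSS, where Saa1 was higher in the knockout with no overlap between genotypes, so the genotype values after DSS are given below as a description, without a test.

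There were 4 groups and 14 mice, all C57BL/6N by the labels: WT (n = 4), MiR-29ab1-/- (labelled KO, n = 4), WT after 3 days of 3.5% DSS (n = 3) and KO after the same treatment (n = 3). All groups were littermates 8 to 12 weeks old, matched for age and sex, and the sex of each mouse was not available. The knockout is a germline deletion of the cluster that encodes miR-29a and miR-29b-1, carried in every cell, so epithelial and immune cells lack it alike. The experiments with and without DSS were deposited as separate tables. DSS and experiment therefore cannot be told apart.

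SAA proteins are small apolipoproteins. Saa1 and Saa2 encode the acute-phase forms that the liver releases into blood under IL-6 and IL-1, Saa3 encodes a form made mainly outside the liver, and Saa4 encodes a constitutive form. In the gut, the epithelium makes SAA in response to IL-22 and to adherent bacteria, where it binds retinol and acts on Th17 cells and phagocytes.

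Total counts ranged from 14231157 to 18185020 per mouse without DSS and from 20076719 to 23153149 after DSS. The mature miRNA genes gave at most 1 read in any mouse, so they could not check the genotype. Lncpint and Gm27019, noncoding genes next to the deleted cluster, did: Lncpint had 7 to 23 reads in WT and 1386 to 2889 in KO without DSS, and 6 to 14 against 706 to 1144 after DSS. The labels name small intestinal crypts and the study's methods name colon. Hoxb13, a marker of the distal gut, reached at least 1780 reads in every mouse, and the small intestinal genes Apoa4 and Lct never exceeded 2 and 6 reads. Other genes of the small intestinal list were present, Fabp2 at 2330 to 8497, Alpi at 157 to 746 and Fabp6 at 26 to 572 reads, so the markers did not settle the segment. Muscle and fat markers were low, with at most 3 reads of Myh11, 12 of Acta2 and 39 of Tagln, and none of Plin1. In the same list of muscle and fibroblast genes, Dcn had 15 to 435, Col3a1 23 to 323 and Col1a1 9 to 78 reads. The sum of that list after DSS was 22.1 to 35.6 CPM (counts scaled to library size) in WT and 17.7 to 50.8 CPM in KO mice. The liver list was mixed. Serpina1a and Fgb reached at most 1 read, while Tat had 260 to 1401, Ttr 105 to 509, Apoh 5 to 51 and Alb 3 to 25 reads. After DSS, the second KO library stood apart in that its 10 most abundant genes held 22.3% of counts, against 10.2% to 16.7% in the other 5, and the genotype values of the members and of the pathway lists after DSS are therefore also given without it.

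The deleted miRNAs share a seed, shown here because it is what a direct target would have to pair with (capitals mark bases 2 to 8; RefSeq, GRCm38.p6, minus strand, chr6:31062673-31062694 and chr6:31063025-31063047).

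miR-29a-3p: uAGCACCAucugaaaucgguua
miR-29b-3p: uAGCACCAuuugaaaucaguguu

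The letters that pair with this seed, TGGTGCT, occurred 0 times in the 2 annotated transcripts of Saa1, the 4 of Saa2, the 3 of Saa3 and the single transcript of Saa4. Of 21901 protein-coding genes searched in the same way, over whole transcripts, 31.2% held the heptamer. The absence says only that these letters are not in the annotated transcripts.

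The members lie within 42.3 kb of chromosome 7. The files give spans that are identical to GENCODE vM21 on GRCm38: Saa3 at chr7:46711998-46715700, Saa4 at chr7:46727998-46732603 and Saa1 at chr7:46740497-46742980, all on the minus strand, and Saa2 at chr7:46751790-46754313 on the plus strand. Saa1 and Saa2 are thus neighbours transcribed away from each other. Over the 250 bases before their RefSeq start sites they were 95.6% identical, with 11 differing bases in 249 aligned. The stretch from 190 to 51 bases before each start is shown because these near-identical upstream sequences belong to genes whose read counts differed greatly. Capitals mark the letters that differ or are inserted (GRCm38.p6; Saa1 chr7:46743031-46743170, minus strand; Saa2 chr7:46751643-46751782, plus strand).

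Saa1: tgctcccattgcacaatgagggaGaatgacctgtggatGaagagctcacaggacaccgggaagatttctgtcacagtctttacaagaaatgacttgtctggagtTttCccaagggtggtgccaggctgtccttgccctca
Saa2: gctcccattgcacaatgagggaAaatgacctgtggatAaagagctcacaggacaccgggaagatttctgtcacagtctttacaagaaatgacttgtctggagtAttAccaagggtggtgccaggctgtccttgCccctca

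Counted from the first base printed for Saa1, with the Saa1 base first, the substitutions were G24A, G39A, T105A and C108A. A C/EBP-type motif, TTGCNNAA on either strand, was found once in the 250 bases of each of Saa1, Saa2 and Saa3 and 2 times in Saa4, and 9.56% of 32851 RefSeq promoter windows of that length held it. In the stretches above it is ttgcacaa. An NF-kB-type motif, GGGNNNNNCC, was found once each in Saa1, Saa2 and Saa4 and not in Saa3 (45.8% of windows held it), and a STAT-type motif, TTCNNNGAA, was found in none of the 4 (7.02% of windows). None of these motifs overlapped another in the Saa1 and Saa2 windows. These matches are letters in a window and were not tested for binding.

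Saa1 carried nearly all reads of the family in every mouse. It held 96.5% to 99.1% of the reads of the 4 members (median 97.8% over 14 mice), Saa3 held 0.849% to 3.12% and Saa2 held 0.0352% to 0.312%. By read count, Saa1 ranked between 166th and 1913th among the genes of its mouse, and Saa3 between 7697th and 11942nd. Levels per length, in CPM (counts scaled to library size) per kb of the main spliced transcript, were 273 ± 125 (SD, n = 4) for Saa1 in WT mice without DSS, 7.14 ± 2.63 for Saa3 and 0.173 ± 0.0785 for Saa2. The order Saa1 over Saa3 over Saa2 held in each of the 14 mice without overlap of the ranges. The lengths in the files count retained introns of Saa1, Saa2 and Saa3, and on those lengths the WT values were 67.1 ± 30.8 for Saa1, 1.52 ± 0.559 for Saa3 and 0.0417 ± 0.0189 for Saa2, in the same order.

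**Figure D1:**
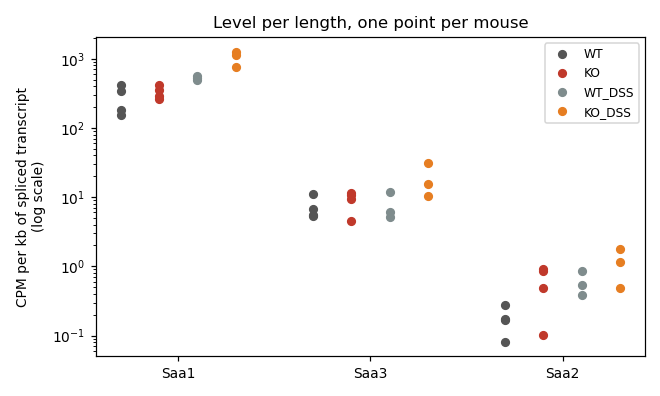
Level of Saa1, Saa3 and Saa2 per length. The vertical log axis gives CPM per kb of the spliced transcript and each point is a mouse, coloured by group (WT and KO without DSS n = 4 each, WT_DSS and KO_DSS n = 3 each). All points of Saa1 lie above all points of Saa3, and all points of Saa3 above all points of Saa2.

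Saa1 and Saa2 are close enough for reads to be shared, and the counting method was not given in the sources used here. Their spliced transcripts were 94.4% identical over 606 aligned bases. Of the windows of 50 bases in the Saa1 transcript, 13.2% occurred unchanged in Saa2, and of the windows of 100 bases 0% did. Saa2 had 0.358 to 3.23 reads per 1000 Saa1 reads. Whether these few reads came from Saa2 or were misassigned Saa1 reads was not tested, and the Saa2 values are uncertain for that reason. Summing both genes hardly moved the Saa1 values, with a WT mean of 166.3 CPM in place of 166.2. Saa1 and Saa3 were 73.2% identical and shared 1.61% of the windows of 50 bases.

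Without DSS, no member differed between genotypes beyond the spread between mice. Saa1 had 109, 250.5, 95.0 and 210.3 CPM in WT mice 1 to 4, scaled over all 14 mice, and 173, 258, 212 and 160.5 CPM in KO mice 1 to 4. The genotypes overlapped, and WT mice differed among themselves by 2.64-fold. The group means were 166 ± 76.2 and 200.8 ± 43.8 CPM (SD, n = 4 each). The log2 fold change of KO over WT was 0.28 (SE 0.31), with an adjusted p of 1.00 in edgeR's quasi-likelihood test.

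Saa3, with 59 to 110 reads in WT and 40 to 109 in KO mice, overlapped as well. Its levels were 3.01, 6.07, 2.97 and 3.80 CPM in WT and 2.48, 5.90, 6.34 and 5.19 CPM in KO mice, with a log2 fold change of 0.34 (SE 0.33) and an adjusted p of 1.00 in the same edgeR test. These 2 members passed the filter on low counts. For comparison, 3 of 15441 genes, or 0.0194%, passed an adjusted p of 0.05, and 3.67% had an unadjusted p under 0.05. These 3 were Lncpint, Gm27019 and an unnamed feature beside them, all higher in KO.

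Saa2 and Saa4 were too low for that test. Saa2 had 1, 3, 2 and 2 reads in WT mice and 1, 10, 5 and 8 in KO mice. The ranges overlapped through KO mouse 1, and 3 of 4 KO mice lay above every WT mouse. The mean log2 CPM (prior count 2) was 0.97 higher in KO, with p = 0.114 in a 2-sided exact permutation test, for which the smallest possible p is 0.0286. Without KO mouse 1 the difference was 1.40. No p is given for it, since leaving out the only overlapping KO mouse separates the genotypes by construction. Saa4 had 0 reads in all WT mice and 0, 2, 2 and 3 in KO mice, which is at or under the floor of 3 reads, and no fold is given. None of Saa1, Saa2 and Saa3 separated the genotypes without overlap here, where 2.03% of genes tested did.

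**Figure D2:**
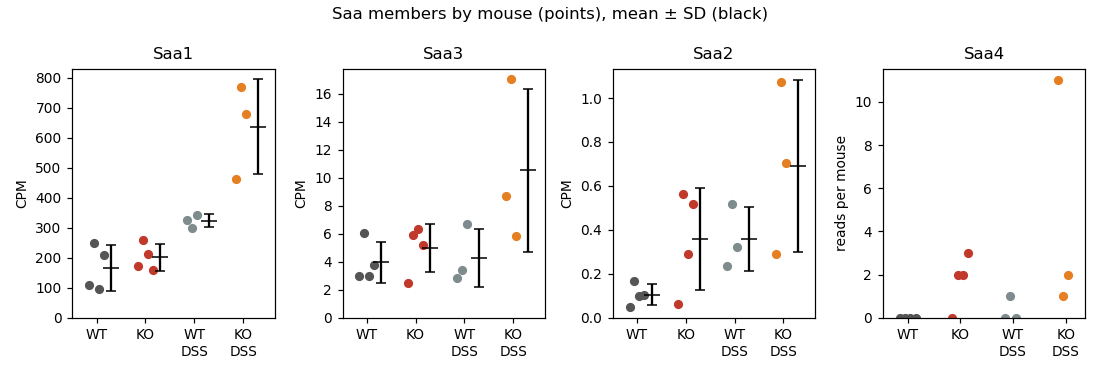
Saa1, Saa3 and Saa2 in CPM and Saa4 in reads, one point per mouse, by group. Black marks give the group mean and SD for the first 3 panels; WT and KO have 4 mice each and the DSS groups 3 each. Only in the Saa1 panel do the KO mice after DSS lie wholly above the WT mice after DSS, at 461 to 769 against 299.8 to 343 CPM.

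After DSS, Saa1 was higher in each KO mouse than in any WT mouse, which is the pattern that chose the members. The WT mice had 325, 299.8 and 343 CPM and the KO mice 461, 769 and 680.3 CPM. In reads these were 6879, 6372 and 6431 against 7926, 12875 and 14466. The means were 323 ± 21.8 and 637 ± 159 CPM (SD, n = 3 each), a ratio of 1.97, and the gap between the lowest KO and the highest WT mouse was 1.34-fold. Among all 14908 genes tested, 5.33% lay higher and 6.28% lower in KO without overlap, so the separation of the genotypes is common in this table, and nothing is read from it for Saa1. The difference in mean log2 CPM was 0.95, and it ranged from 0.79 to 1.16 when each mouse was left out in turn. The lowest value came without KO mouse 2.

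Saa3 overlapped between genotypes after DSS. It had 2.84, 3.39 and 6.67 CPM in WT mice and 8.72, 17.1 and 5.83 CPM in KO mice, so that KO mouse 3 lay below WT mouse 3. The ratio of the means was 2.45, and the difference in mean log2 CPM was 1.23, or 0.81 without KO mouse 2. Saa2 had 5, 11 and 6 reads in WT and 5, 18 and 15 in KO mice, with a ratio of mean CPM of 1.93 and a difference in mean log2 CPM of 0.69, or 0.34 without KO mouse 2. Saa4 had 0, 1 and 0 reads in WT and 11, 1 and 2 in KO mice, and 11 of its 14 reads in KO came from mouse 1. In CPM, KO mouse 2 was highest for Saa1, Saa2 and Saa3. In reads, KO mouse 3 was highest for Saa1, KO mouse 2 for Saa2 and Saa3, and KO mouse 1 for Saa4.

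Markers of other cell types differed in part as well, and none of them was called between genotypes by edgeR's adjusted p. The summed level of 8 neutrophil markers was 51.3 to 110.3 CPM in WT and 102 to 272 CPM in KO mice after DSS, highest in KO mouse 2, where Ly6g alone reached 228 CPM, while Elane was at 0 reads in every mouse. The sum of 9 macrophage and monocyte markers was 19.7 to 34.5 CPM in WT and 21.3 to 52.3 CPM in KO. KO mouse 2, with the highest Saa1 level at 769 CPM, was highest in both sums, at 272 and 52.3 CPM. KO mouse 3, at 680.3 CPM of Saa1, lay within the WT range for both, at 102 and 21.3 CPM. KO mouse 1, at 461 CPM of Saa1, had 146 and 35.1 CPM. The sum of 5 T cell markers was 25.7 to 50.9 CPM in WT and 34.8 to 88.5 CPM in KO, and that of 5 B and plasma cell markers was 323 to 367 CPM in WT and 285 to 335 CPM in KO. That of 7 liver markers was 44.4 to 49.6 CPM in WT and 51.7 to 94.0 CPM in KO, again highest in mouse 2 and made up mostly of Tat and Ttr. In bulk samples, fewer or more cells of a type and less or more RNA per cell cannot be told apart. The part of these cells in the Saa values was not tested.

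After DSS against without DSS, Saa1 was higher in WT mice, whose mean rose from 166 to 323 CPM, a ratio of 1.94. The fitted log2 fold change in WT mice alone was 0.96 (SE 0.31, adjusted p = 0.0256, edgeR), and 20.2% of 16370 genes were called higher in the same contrast. In KO mice the mean was 200.8 CPM without and 637 CPM after DSS, a ratio of 3.17 and a fitted log2 fold change of 1.66. The average over the genotypes was 1.31 (SE 0.22). The last 2 values contain the KO mice whose high Saa1 chose the members, so they are given without a test, as is the difference between the genotypes. Each mouse after DSS lay above all mice of its genotype without DSS. The summed neutrophil markers were 6.28 to 24.0 CPM without DSS and 51.3 to 272 CPM after it. The sum of 9 colon epithelium markers was 2165 to 5470 CPM without DSS and 12465 to 17827 CPM after it. Averaged over the genotypes, 6 of the 9 were called higher, and their median log2 fold change was 0.90. Muc2 alone ranged from 20.6 to 8987 CPM over all mice. Its highest value exceeded every sum without DSS, so the rise of the sum rests in part on Muc2. The cause of the Muc2 range was not tested. The part of the neutrophil or epithelium markers in the Saa values was not tested.

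Averaged over the genotypes, the background is large, with 28.7% of 16370 genes called higher and 29.5% called lower after DSS, and the libraries come from separate experiments. Saa2 had a log2 fold change of 1.33 (SE 0.46) and Saa3 of 0.60 (SE 0.30). Both values contain the KO mice after DSS on which the members were chosen, so they are given without a test. Saa2 also passed the filter on low counts through KO mice only. Its value was 1.17 without WT mouse 2 after DSS and 1.13 without KO mouse 2 after DSS. It was 1.73 in the WT contrast and 0.93 in the KO contrast of the fit over all 14 mice. Saa3 was at 0.36 without KO mouse 2 after DSS and at 1.08 in the KO contrast. In the WT contrast Saa3 was at 0.12 (adjusted p = 0.854, edgeR), with the spread again taken from all 14 mice. Saa4 stayed at or under 3 reads in 13 of 14 mice.

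A further 11 genes have spans that reach within 100 kb of it, including Saal1, a gene named for its similarity to Saa1, the pseudogene Saa-ps, Tph1, the enzyme of gut serotonin synthesis, and Ldha, lactate dehydrogenase A. Saal1 had 183 to 338 reads per mouse, and its log2 fold change of KO over WT was -0.08 (SE 0.14) without and 0.12 (SE 0.16) after DSS. Saa-ps had at most 6 reads and Gm45308 had none. Among the neighbours tested between genotypes, 8 without and 7 after DSS, 0 were called by edgeR's adjusted p, with 1 and 0 at an unadjusted p under 0.05. That 1 was Tph1 without DSS, at -0.63 (SE 0.28, adjusted p = 1.00). The fitted values of the 7 neighbours after DSS (Sergef, Tph1, Saal1, Hps5, Gtf2h1, Gm9392 and Ldha) ran from -0.19 to 0.23.

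After DSS against without, 5 of 9 tested neighbours were called, 4 higher and 1 lower. Over all genes tested, 28.7% were called higher and 29.5% lower, so nothing is read from the count. Ldha rose by 0.93 (SE 0.13), Gm9392 by 0.78 (SE 0.15), Sergef by 0.53 (SE 0.15) and Gtf2h1 by 0.35 (SE 0.082) on the log2 scale, and the noncoding gene Gm45309 fell by 2.74 (SE 0.51). Hps5, Tph1, Saal1 and Gm45629 did not pass. Saa1 at 1.31 and Saa2 at 1.33 lay above all 9 neighbours, while Saa3 at 0.60 lay below Ldha and Gm9392 and close to Sergef. The member values contain the KO mice after DSS on which the members were chosen, so nothing is read from their place above the neighbours. In the WT contrast Saa1 was at 0.96. No difference between members and neighbours was tested.

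**Figure D3:**
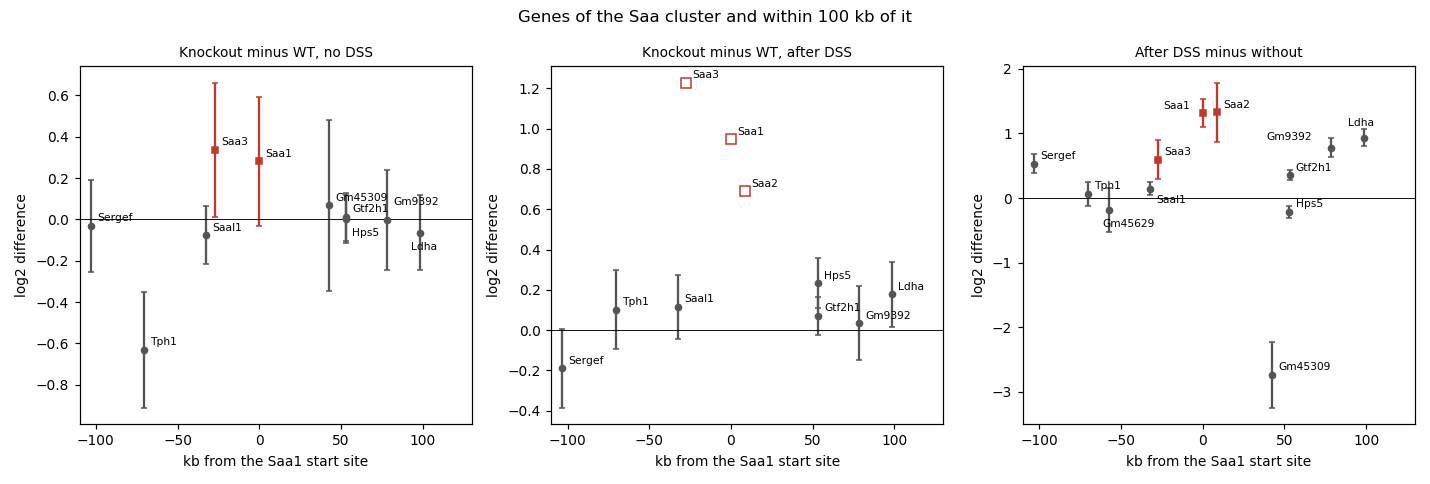
Log2 differences of the Saa genes (red squares) and of genes reaching within 100 kb of the cluster (grey circles) by distance in kb from the Saa1 start site, in the 3 comparisons. Bars are the SE of the edgeR fit; open squares are differences in mean log2 CPM given without a test. After DSS the 7 neighbours lie between -0.19 and 0.23, and Saa2, Saa1 and Saa3 at 0.69, 0.95 and 1.23.

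Among the cytokines that induce Saa genes, Il6 was at most 2 reads in any mouse. Of the 12 cytokines, 6 passed the filter after DSS. None was called between genotypes by adjusted p, where 2 of 14908 genes, or 0.0134%, were called (Lncpint and Gm27019). At an unadjusted p under 0.05, 7.23% of all genes passed, and 1 of the 6 cytokines did, Il18, an epithelial cytokine of the IL-1 family. Il18 was at 116 ± 19.3 CPM in WT and 177 ± 37.8 CPM in KO mice (SD, n = 3 each), a log2 fold change of 0.60 (SE 0.17). Tnf was 1.20 (SE 0.54) and Ifng 0.87 (SE 0.45) on the same scale. The median over the 6 was 0.83, against -0.01 over all genes.

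Between experiments, 4 of 6 cytokines rose and 0 fell. Il1b rose by 5.23 (SE 0.62) on the log2 scale, Il18 by 2.36 (SE 0.23), Tnf by 1.20 (SE 0.35) and Lif by 0.69 (SE 0.16). Of the 12 receptors of these cytokines, 6 rose and 3 fell. Osmr, the oncostatin M receptor, rose by 2.25 (SE 0.41), Tnfrsf1a by 0.65 (SE 0.071) and Il10rb, a subunit of the IL-22 receptor, by 0.63 (SE 0.070). Both chains of the IL-6 receptor fell, Il6ra by 0.92 (SE 0.24) and Il6st by 0.45 (SE 0.098). Between genotypes after DSS, 0 of 12 receptors had an unadjusted p under 0.05. Without DSS 1 of 11 did, Il6ra at 0.73 (SE 0.26).

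The transcription factors and brakes of Saa genes moved mainly between experiments, where 11 of 15 tested rose and 0 fell. Socs3, the feedback inhibitor of STAT3, rose by 2.10 (SE 0.28), Tnfaip3 and Nfkbia, which restrain NF-kB, by 0.96 (SE 0.14) and 0.71 (SE 0.093), the NF-kB subunit Relb by 0.55 (SE 0.075) and Stat3 by 0.45 (SE 0.074). Between genotypes after DSS, 3 of 15 had an unadjusted p under 0.05, all higher in KO and none past adjustment. These were Nfkbiz at 0.82 (SE 0.28), Tnfaip3 at 0.62 (SE 0.24) and Nfkbia at 0.38 (SE 0.15), and the list median was 0.12. Without KO mouse 2, 0 of 15 did, with 0.66 (SE 0.29) for Nfkbiz. Without DSS none of 15 did. Rarb was listed at no more than 3 reads.

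The IL-22 and STAT3 epithelial response had the largest number of genes with a low unadjusted p between genotypes after DSS of the 7 lists, 7 of 16, all higher in KO, and 0 past adjustment. The smallest p belonged to Tifa, an adaptor in NF-kB signalling, at 0.76 (SE 0.21), Pim1, a kinase gene induced by STAT3, at 0.46 (SE 0.16) and Lcn2, the iron-sequestering protein lipocalin 2, at 2.32 (SE 0.77). Lcn2 was at 0.812 ± 0.321 CPM in WT and 4.13 ± 3.16 CPM in KO mice. KO mouse 3, at 0.705 CPM, lay within the WT range of 0.567 to 1.18 CPM. No p is given for Lcn2 without that mouse, since leaving it out separates the genotypes by construction. The genotypes did not overlap for 5 of the 16, all higher in KO, against 5.33% of all genes. The list median was 1.19. S100a8, at 3.19 (SE 1.17), is 1 of the 7, and it and S100a9 are also in the neutrophil marker list. Without KO mouse 2, 2 of 16 had an unadjusted p under 0.05, Tifa and Pim1, and the list median was 0.83.

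Between experiments, 12 of these 16 rose and 1 fell. The antimicrobial lectins Reg3b and Reg3g rose by 5.97 (SE 0.99) and 4.84 (SE 0.69) and Reg3a by 2.98 (SE 0.58), while Retnlb, a goblet cell protein, fell by 1.88 (SE 0.40). Reg3g stood at 129 ± 105 CPM in WT and 919 ± 1008 CPM in KO mice after DSS, so its spread within KO was as large as its mean, and its log2 fold change of 2.83 had an unadjusted p of 0.0762 in edgeR, and without KO mouse 2 it was 1.42 (SE 1.04). Without DSS, 1 of 12 tested had an unadjusted p under 0.05, Duoxa2 at 0.65 (SE 0.28).

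Of 18 other acute-phase proteins, 7 never exceeded 3 reads, namely Orm1, Crp, Apcs, Fga, Fgb, Fgg and Itih4, genes expressed mainly in liver. Saa1 in the same mice had at least 1890 reads. Of the 6 tested between genotypes after DSS, 2 had an unadjusted p under 0.05 and 0 passed adjustment. Lbp, the lipopolysaccharide-binding protein, was at 8.81 ± 5.82 CPM in WT and 43.0 ± 18.5 CPM in KO mice (SD, n = 3 each), a log2 fold change of 2.28 (SE 0.62), with no overlap of genotypes. It was 2.16 (SE 0.73) without KO mouse 2. Lcn2 was the other, at 1.72 (SE 0.76) without that mouse. Hp, haptoglobin, was 2.18 (SE 1.06). Between experiments, Lbp rose by 2.61 (SE 0.37), Hp by 2.60 (SE 0.91), Lcn2 by 1.78 (SE 0.49) and complement C3 by 0.94 (SE 0.34), which makes 4 of 7 higher and 0 lower.

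Receptors and cargo of SAA proteins moved in both directions. Between genotypes after DSS, Scarb1, which takes up SAA-bearing lipoprotein, was at 23.9 ± 1.43 CPM in WT and 16.0 ± 5.20 CPM in KO mice, a log2 fold change of -0.59 (SE 0.21), and Tlr2 was at 37.2 ± 8.14 and 52.4 ± 10.9 CPM, or 0.49 (SE 0.20). Neither passed adjustment, nor an unadjusted p of 0.05 without KO mouse 2, and 9 genes of this list were tested. Between experiments 4 of 11 rose and 1 fell. Tlr2 rose by 1.01 (SE 0.15), the retinol carrier Rbp2 by 0.94 (SE 0.19) and Apoa2 by 0.76 (SE 0.29), and Rbp4 fell by 0.85 (SE 0.23). Of 12 Th17 and ILC3 genes, only 4 passed the filter after DSS and 0 of these had an unadjusted p under 0.05 between genotypes. Il23r and Il12b never exceeded 3 reads. Between experiments, Ahr fell by 0.20 (SE 0.078) and Ccr6 by 1.37 (SE 0.53).

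**Figure D4:**
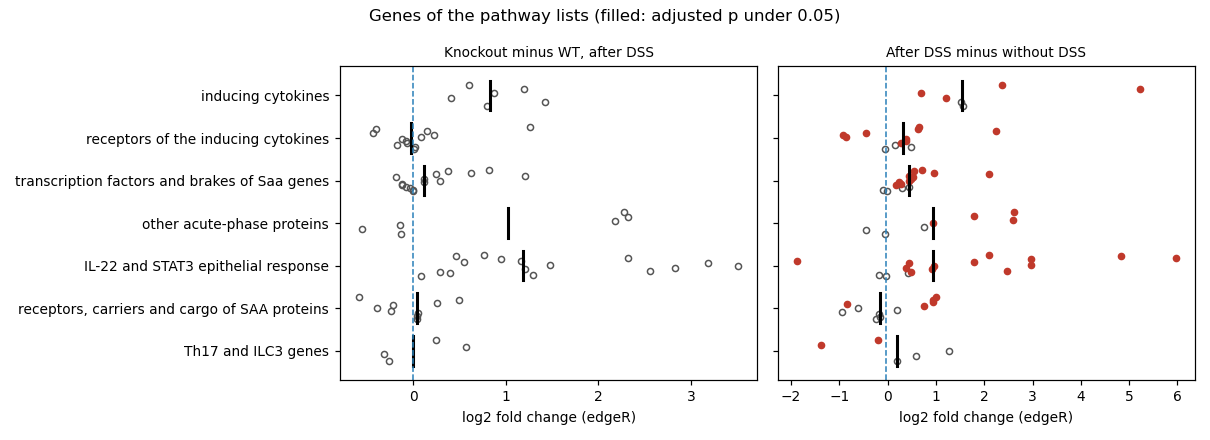
Fitted log2 fold changes of the genes of 7 pathway lists, one point per gene, for KO over WT after DSS (left) and after DSS over without DSS (right). Filled points have an adjusted p under 0.05, black bars are list medians and the dashed line is the median of all genes tested. No point is filled on the left, and 46 distinct genes are filled on the right.

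Over the 7 lists, 66 distinct genes were tested between genotypes after DSS, and 14 of them, or 13 higher and 1 lower in KO, had an unadjusted p under 0.05. That is 21.2%, against 7.23% of all genes. Without KO mouse 2 it was 4 of 68, or 5.88%, against 3.16% of all genes, and the 4 were Il18, Lbp, Tifa and Pim1. Of 56 tested without DSS, 3 did, or 5.36% against 3.67% of all genes. DESeq2, like edgeR, called 0 list genes between genotypes in either experiment. Between experiments 46 of 70 were called, 39 higher and 7 lower, or 55.7% and 10% against 28.7% and 29.5% of all genes. The lists were chosen with earlier results of these data known, so these shares are a description and not a test.

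Across mice, Saa1 and Saa3 rose and fell together in part. Pearson's r of their log2 CPM was 0.69 over the 8 mice without DSS and 0.77 over the 6 mice after DSS, which include both genotypes and share library depth. By the lower of its r values in the experiments, Saa3 ranked 94th among 14244 genes in likeness to Saa1. The 5 genes most like Saa1 were Gm10522 (0.88 without and 0.92 after DSS), Nlrp9b (0.87 and 0.87), Slc13a2 (0.86 and 0.92), Tmem189 (0.92 and 0.86) and Ly6m (0.92 and 0.86). Ly6m, of the Ly6 family of surface proteins, stood at 51.4 CPM in WT and 164 CPM in KO mice after DSS. Those most like Saa3 were Rdh9 (0.90 and 0.99), Prkx (0.89 and 0.91), Ripk3 (0.90 and 0.88), Lmo7 (0.88 and 0.93) and Trim40 (0.91 and 0.88). Ripk3, the kinase that triggers necroptosis, was at 40.8 CPM in WT and 73.6 CPM in KO mice after DSS. The r values after DSS span both genotypes, so genes picked by them tend to share the genotype difference of Saa1 or Saa3. Saa1 was itself chosen on that difference, so nothing is read from the Ly6m and Ripk3 levels. These values describe likeness over few mice and carry no test.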

How the data were processed

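RNA of tissue that the study's methods call colon was extracted with TRIzol and sequenced from libraries of the NEBNext Ultra Directional kit. The authors deposited raw read counts per gene and FPKM in a table for each experiment. The submitters' processing notes name HISAT2 and DESeq2. Versions, the counting tool, its strand setting and the genome build are not given in the sources used here. Gene spans equalled GENCODE vM21 (GRCm38) for 99.5% and 98.3% of shared identifiers. The deposited FPKM values without DSS, normalized by the authors for length and depth, were used only in alternatives. The 6 FPKM columns after DSS were not used, nor were the authors' fold changes and p-values. The columns after DSS do not carry the mouse numbers of the labels, so those mice are numbered 1 to 3 by column and grouped by genotype.

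Counts were analysed in R 4.3.3 with edgeR 4.0.16 (quasi-likelihood, robust, TMM, filter of 10 counts and total of 15, Benjamini-Hochberg adjustment, calls at an adjusted p under 0.05), each table alone and all 14 mice together over 54378 shared identifiers for DSS. CPM printed per mouse were scaled over the 14 mice. Standard errors were derived from the fold change and test statistic. The fits were tested on simulated data. DESeq2 1.42.0, limma 3.58.1, other scalings, no filter, leaving out each mouse and a replicate block were alternatives. Sequences were aligned with Biopython 1.88. The members and lists were chosen with earlier results of these data known. Genes named were the members, genes whose name starts with Saa, genes reaching within 100 kb of the cluster, per list and comparison the 5 called genes with the smallest p or else the 3 with the smallest unadjusted p, and the 5 genes most like Saa1 and Saa3. Mice are separate animals, and p-values measure the spread between them. Same-numbered mice of the 2 genotypes without DSS had correlations of their deviations from -0.19 to 0.15, so the numbers did not pair them. Some genes that the naming rule covers are not reported here.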

Additional observations from a re-analysis of the deposited data

How the results depend on the processing

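Without DSS, Saa1 kept its direction and stayed uncalled under 15 alternatives (log2 fold change 0.10 to 0.54). For DSS its direction held under 20 alternatives (0.96 to 1.66). Except in the WT contrast, these DSS values contain the KO mice which chose it, so no call is counted for them. The WT contrast came from the fit over all 14 mice and took its spread from all of them. No result reversed. With a replicate block, which pairs mice by number only, 0.37 was obtained for Saa1, 0.97 for Saa2 and 0.31 for Saa3 without DSS, with no change of call. The block was not run after DSS, because the columns do not carry the mouse numbers. Saa2 without DSS was 0.97, from 0.74 to 1.40 with a mouse left out and 1.72 without the filter on low counts. For DSS, Saa2 ran from 1.13 to 1.51 and was 1.73 in the WT contrast and 0.93 in the KO contrast. Saa3 ran from 0.36 to 0.75 and was 1.08 in the KO contrast.

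Counts of genes called between genotypes changed with the method. Without DSS the 3 calls became 23 with DESeq2, 11 without the filter, 6 with limma on log2(FPKM + 0.1), and 3 to 5 with a mouse left out. After DSS the 2 calls became 59 with DESeq2, 46 without the filter, and 0 to 93 with a mouse left out, the highest without KO mouse 3. Leaving out that mouse also took the count of list genes from 0 to 1, with a range of 0 to 1. The gene was Lcn2, for which KO mouse 3 lay within the WT range, so nothing is read from that call. For DSS, 9524 calls became 6270 in the WT contrast of the same fit. The cause of these changes was not tested. Depth limited Saa2 and Saa4, for which a floor of 3 reads is 0.130 to 0.211 CPM, and 3 mice a group limited the comparison after DSS.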
